A study of Mus musculus with 12 samples.

Results

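The Bcl2 family decides whether a cell's mitochondria release the proteins that start cell death, and it sets how long a platelet lives. Its 10 best known members were followed across 4 mouse genotypes: Bcl2l1, Mcl1 and Bcl2, which keep cells alive, Bax and Bak1, which open the outer mitochondrial membrane, and Bcl2l11, Bbc3, Pmaip1, Bid and Bad, which start the process. The members were taken by gene symbol from a set list, and no threshold on their values was used. They were chosen with earlier results of these data known, so shares called among them are not blind comparisons with all genes. All 10 were found among the 49671 genes of the count table, each in 1 row, and all 10 were among the 15399 genes that passed the filter on low counts.

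RNA sequencing counts came from 12 libraries, each labelled as a pool of embryos collected at embryonic day 9.5, in 4 groups of 3. The markers given below show abundant megakaryocyte and platelet RNA and almost no heart or neural RNA, so expression of a whole embryo should not be assumed. Which cells were sequenced is not settled here. The groups carried a double knockout (KO) of Lyl1 and Scl, a KO of Scl alone, a KO of Lyl1 alone, or neither (wild type). Both genes, Scl under the symbol Tal1, code for basic helix-loop-helix proteins that switch genes on and off in blood cells, and the series concerns Lyl1 in the formation of the first red blood cells. The labels name no strain, allele design, promoter or Cre driver, and do not say whether the libraries of a group came from separate litters. The titles number the libraries of each group as biological replicates. P-values rest on the spread among these libraries, which may not cover separate litters.

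In the family's usual scheme, pro-survival proteins hold Bax and Bak in check, and BH3-only proteins free or activate them. Bcl-xL, the protein of Bcl2l1, restrains Bak in platelets and thereby sets their lifespan, and megakaryocytes, which shed the platelets, rely on Bcl-xL together with Mcl-1. Bcl-xL is also needed for the survival of red blood cell precursors in the mouse embryo. Bim (Bcl2l11), Puma (Bbc3), Noxa (Pmaip1), Bid and Bad are the BH3-only members, of which Noxa binds mainly Mcl-1, and Bad binds Bcl-2 and Bcl-xL.

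4 members, Bcl2l1, Bcl2, Bcl2l11 and Bid, changed in the double KO against each of the other 3 genotypes and also showed a called interaction of the 2 losses. Their sequence just upstream of the transcription start is shown because Scl and Lyl1 bind DNA at CANNTG sites, and Scl often does so beside GATA sites in blood cells. The stretches are the 250 bases before the outermost RefSeq start (GRCm38.p6), read 5′ to 3′ on the gene's strand, with CANNTG and GATA matches on either strand in capitals. They lie at chr2:152831729-152831978 (minus strand) for Bcl2l1, chr1:106714291-106714540 (minus strand) for Bcl2, chr2:128125788-128126037 (plus strand) for Bcl2l11 and chr6:120916825-120917074 (minus strand) for Bid.
Bcl2l1: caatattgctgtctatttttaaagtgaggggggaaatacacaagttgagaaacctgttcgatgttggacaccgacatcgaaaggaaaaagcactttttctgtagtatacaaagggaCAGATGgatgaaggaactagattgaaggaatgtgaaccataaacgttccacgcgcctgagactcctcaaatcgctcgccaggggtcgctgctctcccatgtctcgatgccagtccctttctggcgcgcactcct
Bcl2: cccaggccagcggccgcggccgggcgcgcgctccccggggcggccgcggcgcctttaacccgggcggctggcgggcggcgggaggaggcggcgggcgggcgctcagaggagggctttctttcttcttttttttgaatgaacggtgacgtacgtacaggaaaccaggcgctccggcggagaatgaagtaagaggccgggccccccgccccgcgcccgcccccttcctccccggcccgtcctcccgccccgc
Bcl2l11: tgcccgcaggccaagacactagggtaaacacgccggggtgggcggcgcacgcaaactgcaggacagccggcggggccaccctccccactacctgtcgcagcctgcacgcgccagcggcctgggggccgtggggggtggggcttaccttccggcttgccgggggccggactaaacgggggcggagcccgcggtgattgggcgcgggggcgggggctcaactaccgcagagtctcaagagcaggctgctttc
Bid: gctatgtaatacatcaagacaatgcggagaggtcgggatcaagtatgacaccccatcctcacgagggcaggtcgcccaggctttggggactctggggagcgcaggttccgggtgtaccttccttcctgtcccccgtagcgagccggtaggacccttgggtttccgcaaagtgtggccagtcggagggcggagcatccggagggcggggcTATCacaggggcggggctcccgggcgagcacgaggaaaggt
The Bcl2l1 stretch held 1 CANNTG match, spelled CAGATG, and no GATA match. Bcl2l1 has further RefSeq starts, not printed here. The window at chr2:152828490-152828739 held 1 CANNTG match (CATGTG) and 1 GATA match, and that at chr2:152830718-152830967 held 1 CANNTG and no GATA match. A further window of Bcl2l11, at chr2:128127325-128127574, held neither. The Bid stretch held 1 GATA match, read here as TATC on the opposite strand, and no CANNTG match. Neither motif matched in the Bcl2 and Bcl2l11 stretches. Of 32851 RefSeq windows of the same length, 66.2% held CANNTG, 14.4% held its form CAGATG and 53.6% held GATA. A match describes letters and not a bound site, and its absence covers this stretch only.

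Libraries held 24324685 to 29212443 counts. Levels are in CPM, the count relative to the library's TMM-scaled total, and a count of 0 leaves room for up to 3 counts, or 0.0936 to 0.131 CPM, by counting error alone. The targeted genes followed the labels: Tal1 lay between 77.7 and 100 CPM in the double KO and between 93.4 and 118 CPM in Scl KO, against 542 to 619 CPM in Lyl1 KO and 513 to 643 CPM in wild type. Lyl1 lay between 56.5 and 108 CPM in the double KO and between 85.5 and 90.4 CPM in Lyl1 KO, against 118 to 210 CPM in Scl KO and 149 to 203 CPM in wild type. The exons behind the remaining Lyl1 reads cannot be seen in gene-level counts. All 20 listed megakaryocyte and platelet markers reached 1 CPM, and their summed level was 21800 to 41800 CPM in the double KO, 53500 to 72600 CPM in Scl KO, 77800 to 89800 CPM in Lyl1 KO and 72200 to 83200 CPM in wild type. Of the markers of embryonic tissues, 3 of 8 for heart muscle and 1 of 9 for neural cells (Tubb3) reached 1 CPM in any library, and Myh6, Nkx2-5, Myl7, Nppa, Sox1, Neurog1 and Olig2 had no count. The heart sums were 0.133 to 0.811 CPM in the double KO, 0.271 to 0.892 CPM in Scl KO, 0.213 to 0.866 CPM in Lyl1 KO and 0.291 to 4.89 CPM in wild type. The neural sums were 0.468 to 0.737 CPM in the double KO, 2.83 to 6.85 CPM in Scl KO, 2.96 to 7.01 CPM in Lyl1 KO and 2.33 to 4.84 CPM in wild type. Mesenchyme markers (7 of 8 reached 1 CPM) summed to 19.2 to 47.3 CPM in the double KO, 32.6 to 334 CPM in Scl KO, 11.9 to 77.7 CPM in Lyl1 KO and 140 to 157 CPM in wild type. Among 15 erythroid markers, Klf1, Alas2, Slc4a1, Rhag and Hba-x stayed under 1 CPM in every library, and the sum of all 15 was 213 to 444 CPM in the double KO, 602 to 1120 CPM in Scl KO, 1430 to 1920 CPM in Lyl1 KO and 858 to 986 CPM in wild type.

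The summed level of the megakaryocyte and platelet markers thus moved with genotype. In the double KO against wild type, 18 of the 20 markers fell (adjusted p under 0.05 in the edgeR test described below), where 18.1% of all genes were called lower. Macrophage and monocyte markers (14 of 14 reached 1 CPM) summed to 4030 to 4970 CPM in the double KO, against 5080 to 8770 CPM in wild type. Neutrophil markers (12 of 12) summed to 456 to 1110 CPM in the double KO, against 332 to 696 CPM in wild type. Endothelial markers (12 of 12) summed to 342 to 422 CPM in the double KO, against 597 to 688 CPM in wild type. Of these 12, 5 were called lower and 1 higher. The endothelial sum leans on Esam, with means of 70.6 CPM in the double KO and 298 CPM in wild type. Tie1 went the other way, at 132 and 93.5 CPM. Mast cell and basophil markers (7 of 9) summed to 28.6 to 47.2 CPM in the double KO and 27.9 to 45.4 CPM in Scl KO. They summed to 88.7 to 131 CPM in Lyl1 KO and 96.8 to 165 CPM in wild type. Gata2 was the largest part of the mast cell and basophil sum in every group. Its means were 21.0 CPM in the double KO, 23.7 in Scl KO, 82.2 in Lyl1 KO and 79.9 CPM in wild type. Of the 7 tested mast cell and basophil markers, 2 were called lower in the double KO against wild type. The part of these shifts in the changes of the Bcl2 family was not tested, and in bulk RNA fewer cells of a type and less RNA per cell cannot be told apart.

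A gene is called below where edgeR's quasi-likelihood F-test gave an adjusted p under 0.05 (Benjamini-Hochberg, over all 15399 genes), and a fold change is the log2 value ± its standard error (SE), first group over second. In the double KO against wild type, 6 of the 10 members were called, 2 higher (Bcl2 and Bax) and 4 lower (Bcl2l1, Mcl1, Bcl2l11 and Bid), where 34.5% of all genes tested were called (16.4% higher and 18.1% lower). Against Scl KO, 5 members were called in the double KO, Bcl2 and Pmaip1 higher and Bcl2l1, Bcl2l11 and Bid lower, with a background of 19.1% (8.37% higher and 10.8% lower). Against Lyl1 KO, 6 members were called in the double KO, Bcl2 higher and Bcl2l1, Bak1, Bcl2l11, Bbc3 and Bid lower, with a background of 35.2% (17.4% higher and 17.9% lower). The comparisons share libraries, so a gene named in several of them is not independent evidence each time.

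The single losses touched fewer members. In Scl KO against wild type, Bcl2 was higher and Bid was lower, 2 of 10 members where 5.03% of all genes were called (2.29% higher and 2.73% lower). In Lyl1 KO against wild type no member was called, with a background of 0.0714% (0.0390% higher and 0.0325% lower). 2 members, Bcl2 and Bbc3, had an unadjusted p under 0.05 there, and DESeq2's Wald test called 0 members.

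**Figure D1:**
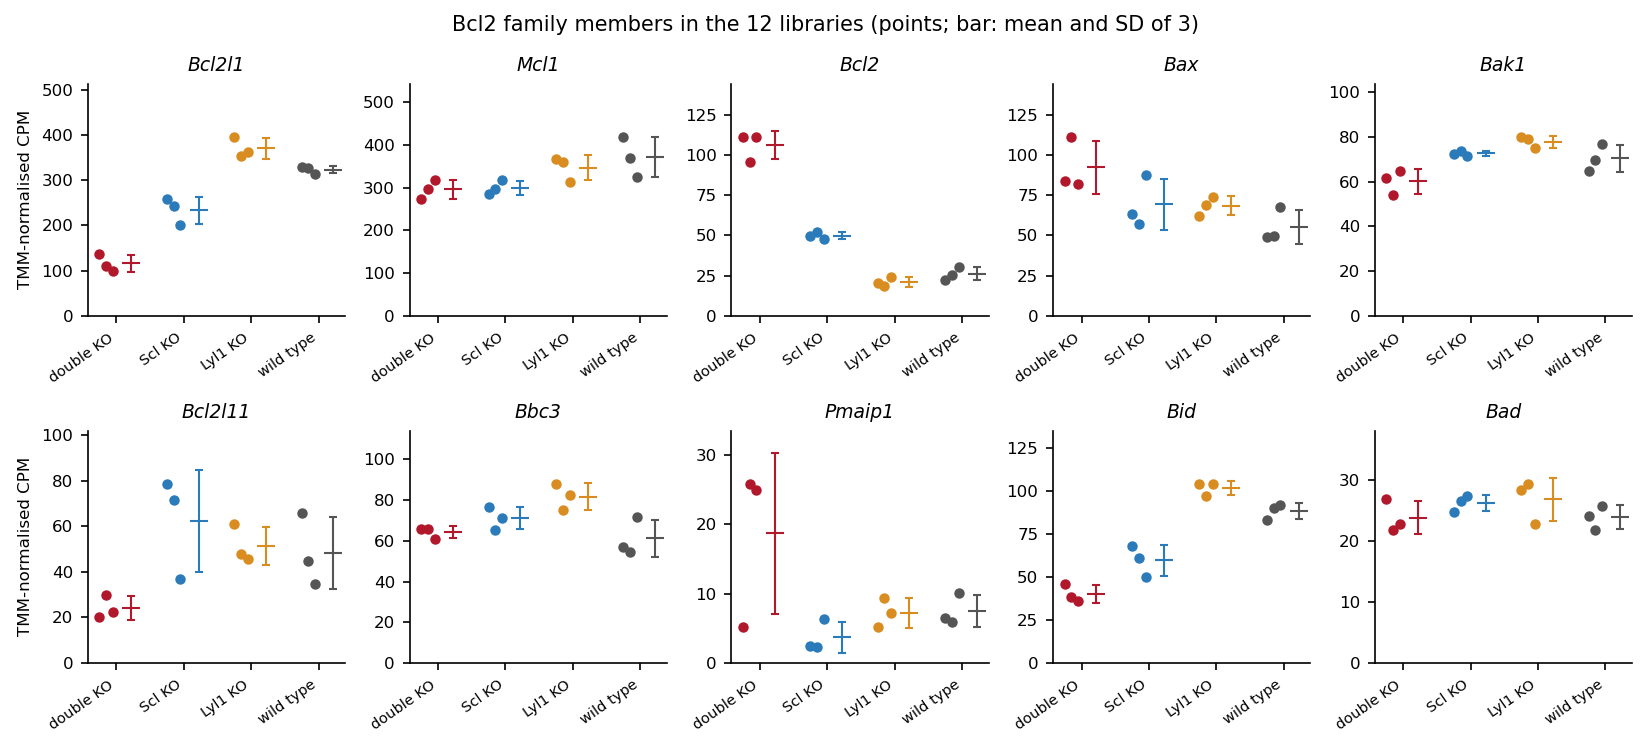
Level of each of the 10 members in TMM-normalised CPM (vertical axis, from 0, a scale per gene) in the 12 libraries (points), beside each group's mean and SD (n = 3). Bcl2l1 and Bid are lowest and Bcl2 is highest in the 3 double KO libraries, while Bad lies between 21.8 and 29.3 CPM throughout.

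Among the pro-survival members, Bcl2l1 fell and Bcl2 rose in the double KO against every other genotype, while the only called change of Mcl1 was small. Bcl2l1 (ENSMUSG00000007659, chromosome 2, 152780668 to 152831728, minus strand) was at 138, 111 and 99.6 CPM in the double KO libraries, at 258, 243 and 200 CPM in Scl KO, at 395, 353 and 362 CPM in Lyl1 KO and at 329, 326 and 314 CPM in wild type. All 3 double KO libraries lay below every other library, and all 3 Scl KO libraries lay below those of Lyl1 KO and wild type. The group means were 116 ± 19.6 CPM in the double KO, 234 ± 30.0 CPM in Scl KO, 370 ± 22.1 CPM in Lyl1 KO and 323 ± 7.76 CPM in wild type (SD, n = 3 each), so that the double KO stood at 35.9% of wild type.

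Bcl2l1 fell by 1.48 ± 0.13 in the double KO against wild type (adjusted p = 9.78e-06). It fell by 1.01 ± 0.13 against Scl KO (adjusted p = 0.000378) and by 1.67 ± 0.13 against Lyl1 KO (adjusted p = 3.55e-06). These calls were kept under all 18 alternatives of each comparison. In Scl KO against wild type the change was -0.47 ± 0.13 and was not called (adjusted p = 0.0654), but it was called without double KO replicate 1 (0.0242) or double KO replicate 3 (0.0343), with the replicate number as a block (0.0148), with the second principal component as a covariate (0.0193) and by DESeq2's Wald test (0.011). In Lyl1 KO against wild type it was 0.20 ± 0.13 (adjusted p = 0.734).

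Bcl2 (ENSMUSG00000057329, chromosome 1, 106538178 to 106714274, minus strand), the founding pro-survival gene of the family, went the other way. It was at 111, 95.8 and 111 CPM in the double KO libraries, at 49.6, 52.0 and 47.8 CPM in Scl KO, at 20.3, 18.4 and 24.4 CPM in Lyl1 KO and at 22.6, 25.4 and 30.7 CPM in wild type. The double KO libraries lay above all others, the Scl KO libraries above those of Lyl1 KO and wild type, and these last groups overlapped. The double KO mean was 403% of the wild-type mean, and the Scl KO mean 190%. Bcl2 rose by 2.01 ± 0.13 in the double KO against wild type (adjusted p = 1.2e-06), by 1.09 ± 0.13 against Scl KO (adjusted p = 0.000241) and by 2.33 ± 0.14 against Lyl1 KO (adjusted p = 4.38e-07). It rose by 0.92 ± 0.13 in Scl KO relative to wild type (adjusted p = 0.00188), and its change in Lyl1 KO against wild type was -0.32 ± 0.13 (adjusted p = 0.567). The 4 calls were kept under all alternatives.

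Mcl1 (ENSMUSG00000038612, chromosome 3, 95658788 to 95663176, plus strand) encodes a short-lived pro-survival protein. It was at 274, 296 and 318 CPM in the double KO libraries, at 285, 298 and 317 CPM in Scl KO, at 368, 359 and 313 CPM in Lyl1 KO and at 418, 370 and 326 CPM in wild type. The double KO and Scl KO libraries all lay below the wild-type ones, which varied most among themselves. Mcl1 fell by 0.33 ± 0.12 in the double KO against wild type (adjusted p = 0.0465). That call was lost in 12 of 18 alternatives, with adjusted p up to 0.196 without wild type replicate 1, and kept when double KO replicate 3 or wild type replicate 3 was left out. It was lost without double KO replicate 1 (0.138) or replicate 2 (0.114), without wild type replicate 2 (0.117), without Scl KO replicate 1, 2 or 3 (0.0652, 0.0671 and 0.0528) and without Lyl1 KO replicate 1, 2 or 3 (0.0643, 0.0714 and 0.0611), with no filter on low counts (0.0918) and in the 6 libraries alone (0.141). Against Scl KO the change of Mcl1 in the double KO was -0.02 ± 0.12 (adjusted p = 0.935), and against Lyl1 KO it was -0.23 ± 0.12 (adjusted p = 0.153).

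**Figure D2:**
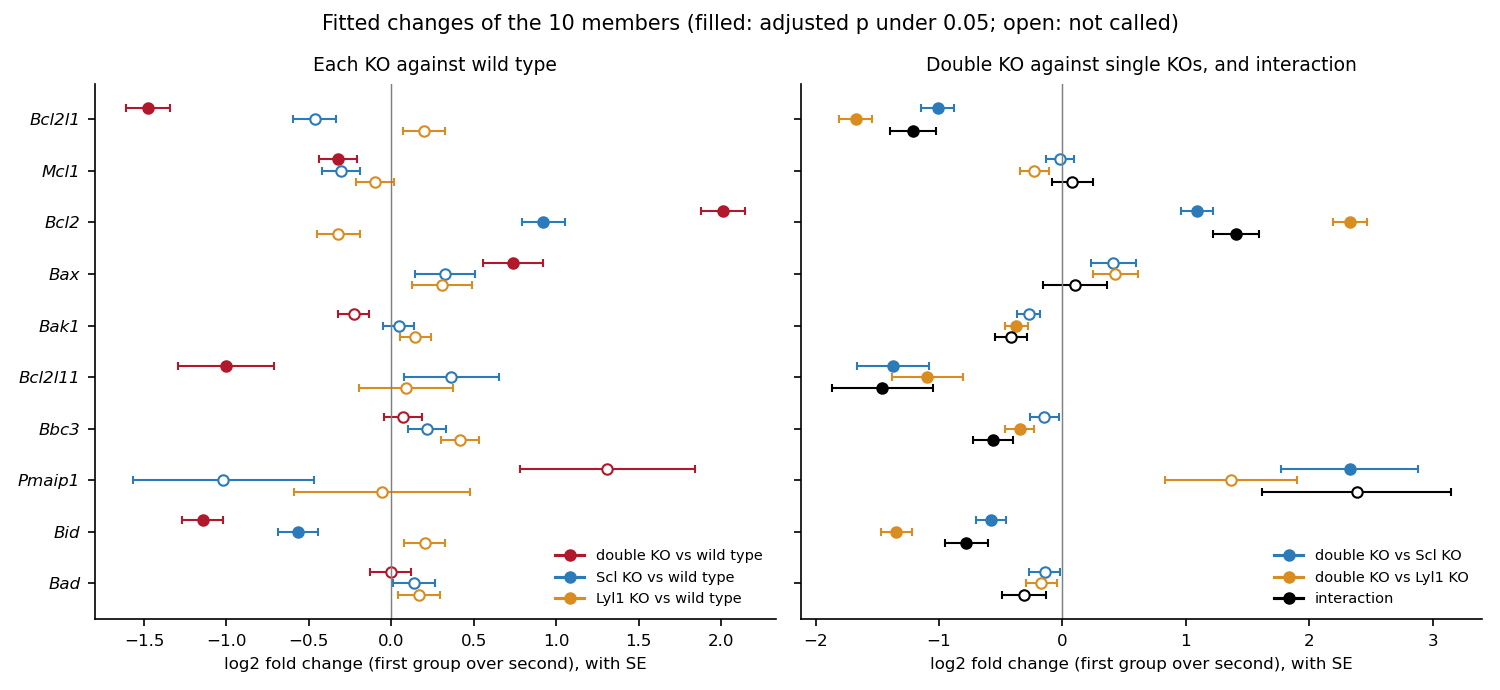
Fitted log2 fold change of each member (horizontal axis, bars are SE), each KO against wild type on the left, and on the right the interaction and the double KO set against the single KOs; filled points are called. Bcl2l1, Bcl2, Bcl2l11 and Bid are filled in the double KO comparisons of both panels, and no Lyl1 KO point is filled against wild type.

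The make-up of the pro-survival transcripts changed with genotype on a scale that allows genes to be compared, CPM per kilobase of exon. Bcl2l1, Mcl1 and Bcl2 together came to 123 ± 3.21 CPM per kilobase in the double KO, 144 ± 2.08 in Scl KO, 184 ± 11.5 in Lyl1 KO and 182 ± 14.5 in wild type (SD, n = 3). Bcl2l1 made up 20.5 ± 3.74% of that sum in the double KO, 35.3 ± 4.09% in Scl KO, 43.8 ± 1.91% in Lyl1 KO and 38.8 ± 2.21% in wild type. Mcl1 was the largest share in every group. It made up 70.2 ± 4.07% in the double KO, 60.9 ± 4.12% in Scl KO, 55.0 ± 2.1% in Lyl1 KO and 59.6 ± 2.55% in wild type. The sums, unlike the shares, depend on TMM scaling, whose factors were 1.141 to 1.303 in the double KO and 0.8937 to 0.9565 in wild type. With levels per length scaled instead to a common sum per library, Mcl1 was at 351 ± 48.7 in the double KO and 336 ± 37.3 in wild type. Bcl2l1 was at 101 ± 9.89 and 218 ± 2.17 on that scale.

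Bcl2 was the smallest of the 3 shares in every library, even after its rise. It made up 9.35 ± 0.649% in the double KO, 3.77 ± 0.11% in Scl KO, 1.25 ± 0.249% in Lyl1 KO and 1.6 ± 0.381% in wild type. Per kilobase, Bcl2l1 exceeded Bcl2 by 2.2 ± 0.364 times in the double KO, against 9.37 ± 1.02 times in Scl KO, 35.7 ± 5.17 times in Lyl1 KO and 25.0 ± 4.33 times in wild type. These shares and ratios are given as descriptions, with no test, and say nothing of protein levels.

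**Figure D3:**
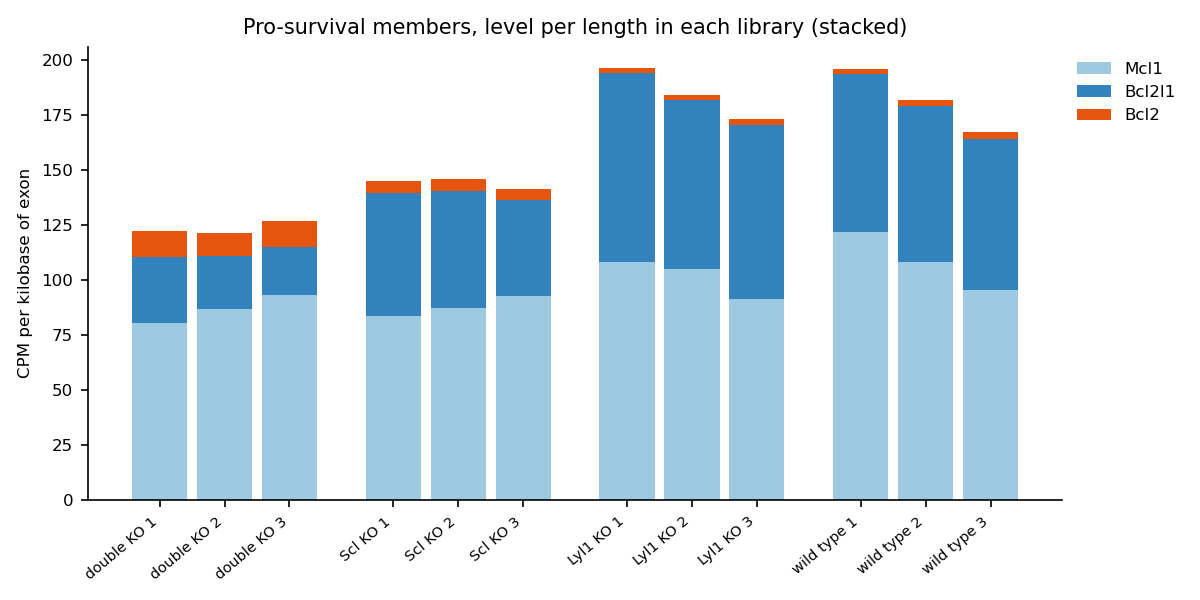
Summed level of Mcl1, Bcl2l1 and Bcl2 in CPM per kilobase of exon (vertical axis, from 0) in each of the 12 libraries, stacked by gene. The double KO bars reach 121 to 127 and the wild-type bars 167 to 196, with a thinner Bcl2l1 layer and a thicker Bcl2 layer in the double KO.

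The effectors Bax and Bak1 had smaller changes than Bcl2l1 and Bcl2. Bax was called higher in the double KO against wild type, and Bak1 was called lower against Lyl1 KO. Bax (ENSMUSG00000003873, chromosome 7, 45461697 to 45466898, minus strand) was at 83.7, 111 and 82.0 CPM in the double KO libraries, at 63.2, 57.1 and 87.4 CPM in Scl KO, at 62.2, 68.9 and 74.1 CPM in Lyl1 KO and at 48.9, 49.4 and 67.4 CPM in wild type. The double KO libraries lay above those of Lyl1 KO and wild type, and 1 Scl KO library (replicate 3) lay among them. Bax rose by 0.74 ± 0.18 in the double KO against wild type (adjusted p = 0.00851), a call kept under all 18 alternatives. Against Scl KO its change was 0.41 ± 0.18 (adjusted p = 0.138, and 0.0233 without Scl KO replicate 3), and against Lyl1 KO it was 0.43 ± 0.18 (adjusted p = 0.0862). The change against Lyl1 KO was called without Scl KO replicate 3 (0.041) and in the 6 libraries alone (0.0433). It was also called with the replicate number as a block (0.0483) and with the second principal component as a covariate (0.019). The Lyl1 KO libraries all scored high on that component (24.4 to 35.1), so the covariate is not an independent check of comparisons with Lyl1 KO.

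Bak1 (ENSMUSG00000057789, chromosome 17, 27019810 to 27029009, minus strand), the effector that Bcl-xL restrains in platelets, was at 61.6, 53.8 and 64.8 CPM in the double KO libraries, at 72.4, 73.7 and 71.5 CPM in Scl KO, at 79.8, 78.9 and 74.8 CPM in Lyl1 KO and at 64.6, 69.6 and 76.7 CPM in wild type. The double KO libraries lay below all single KO libraries and overlapped wild type at its lowest value. Bak1 fell by 0.37 ± 0.09 in the double KO against Lyl1 KO (adjusted p = 0.00829). Scaled per length to a common sum per library, its mean was not lower. It was 101 ± 11.8 in the double KO and 93.1 ± 2.15 in Lyl1 KO. Against wild type its change was -0.23 ± 0.09 (adjusted p = 0.0768) and against Scl KO -0.27 ± 0.09 (adjusted p = 0.0605). These 2 changes were called without double KO replicate 3 (adjusted p of 0.0411 and 0.0369), with the second principal component as a covariate (0.0314 and 0.0221) and by DESeq2's Wald test (0.0477 and 0.0297). Per kilobase of exon, the Bcl2l1 transcript stood at 1.02 ± 0.189 times Bak1 in the double KO, 1.69 ± 0.203 times in Scl KO, 2.5 ± 0.131 times in Lyl1 KO and 2.42 ± 0.261 times in wild type. The double KO ratios, from 0.807 to 1.17, lay below all others.

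Of the 5 BH3-only members, Bid and Bcl2l11 fell in the double KO against all 3 other genotypes. Bid (ENSMUSG00000004446, chromosome 6, 120891930 to 120916853, minus strand) links death receptors to the mitochondria once caspase-8 cuts its protein. It was at 46.0, 38.2 and 35.9 CPM in the double KO libraries, at 67.9, 61.3 and 50 CPM in Scl KO, at 104, 97.3 and 104 CPM in Lyl1 KO and at 83.2, 90.4 and 91.9 CPM in wild type. The 4 groups did not overlap, in the order double KO, Scl KO, wild type and Lyl1 KO from low to high. Bid fell by 1.15 ± 0.12 in the double KO against wild type (adjusted p = 3.35e-05), by 0.58 ± 0.12 against Scl KO (adjusted p = 0.00643) and by 1.35 ± 0.12 against Lyl1 KO (adjusted p = 9.47e-06), and kept these calls under all alternatives. In Scl KO against wild type it fell by 0.57 ± 0.12 (adjusted p = 0.0194), and that call was lost without Scl KO replicate 2 (0.0637), Scl KO replicate 3 (0.0555) or wild type replicate 2 (0.0695) and in the 6 libraries alone (0.0523). The change of Bid in Lyl1 KO against wild type was 0.20 ± 0.12 (adjusted p = 0.711).

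Bcl2l11 (ENSMUSG00000027381, chromosome 2, 128126038 to 128162547, plus strand) encodes Bim, a BH3-only protein that binds all pro-survival members. It was at 20, 29.9 and 22.4 CPM in the double KO libraries, at 78.4, 71.4 and 36.9 CPM in Scl KO, at 61.0, 47.8 and 45.4 CPM in Lyl1 KO and at 65.6, 44.9 and 34.5 CPM in wild type. The double KO libraries lay below all others, and the other 3 groups overlapped widely. Bcl2l11 fell by 1.37 ± 0.29 in the double KO against Scl KO (adjusted p = 0.00647) and by 1.09 ± 0.29 against Lyl1 KO (adjusted p = 0.0118), under all alternatives. Against wild type it fell by 1.00 ± 0.29 (adjusted p = 0.0189), and that call was lost without double KO replicate 1 (0.0612), double KO replicate 3 (0.0548) or wild type replicate 1 (0.0844) and with no filter on low counts (0.0632).

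Pmaip1 (ENSMUSG00000024521, chromosome 18, 66458604 to 66465550, plus strand) encodes Noxa, which is induced by p53 and by cell stress. It was at 5.26, 25.8 and 25.0 CPM in the double KO libraries, at 2.44, 2.39 and 6.30 CPM in Scl KO, at 5.14, 9.42 and 7.15 CPM in Lyl1 KO and at 6.49, 5.97 and 10.1 CPM in wild type. Double KO replicates 2 and 3 lay above every other library, whereas replicate 1 lay within the range of the other groups. Pmaip1 rose by 2.33 ± 0.56 in the double KO against Scl KO (adjusted p = 0.0124), a call lost without Scl KO replicate 1 (0.0651) or Scl KO replicate 2 (0.0614), with no filter on low counts (0.0611) and in the 6 libraries alone (0.0576). Its change was 1.31 ± 0.53 against wild type (adjusted p = 0.0759) and 1.37 ± 0.53 against Lyl1 KO (adjusted p = 0.0658). Without double KO replicate 1 these were 1.76 (adjusted p = 0.00623) and 1.82 (adjusted p = 0.00487), and the second was also called without Scl KO replicate 3 (0.0442) and with the second principal component as a covariate (0.0259). DESeq2's Wald test called both (0.0342 and 0.0263).

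Bbc3 (ENSMUSG00000002083, chromosome 7, 16308393 to 16318205, plus strand) encodes Puma, another p53 target that binds all pro-survival members. It was at 66.0, 66.0 and 60.8 CPM in the double KO libraries, at 76.4, 65.5 and 71.3 CPM in Scl KO, at 87.8, 74.9 and 82.5 CPM in Lyl1 KO and at 57.1, 54.6 and 71.8 CPM in wild type. Lyl1 KO had the highest mean, and its libraries did not overlap those of the double KO or wild type. Bbc3 fell by 0.35 ± 0.11 in the double KO against Lyl1 KO (adjusted p = 0.0327), and that call was lost without Lyl1 KO replicate 1 (0.138) or replicate 3 (0.0922) and without double KO replicate 1, 2 or 3 (0.0562, 0.0673 and 0.0796). It was also lost with the second principal component as a covariate (0.0877) and with no filter on low counts (0.0502). Its change in Lyl1 KO against wild type was 0.42 ± 0.11 (adjusted p = 0.435). Scaled per length to a common sum per library, Bbc3 was not lower in the double KO than in Lyl1 KO. Its means were 122 ± 6.54 and 111 ± 7.22.

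Bad (ENSMUSG00000024959, chromosome 19, 6941861 to 6951898, plus strand) links growth factor signalling to the pathway, since Akt phosphorylation keeps its protein from binding Bcl-xL. It was at 26.9, 21.8 and 22.8 CPM in the double KO libraries, at 24.8, 26.6 and 27.4 CPM in Scl KO, at 28.4, 29.3 and 22.8 CPM in Lyl1 KO and at 24.1, 21.8 and 25.7 CPM in wild type. The groups overlapped, and Bad was called in no comparison by edgeR. Its change in the double KO was -0.00 ± 0.13 against wild type, -0.14 ± 0.13 against Scl KO and -0.17 ± 0.13 against Lyl1 KO, with adjusted p of 0.983, 0.473 and 0.321.

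Per kilobase of exon, Mcl1 was the most abundant member in every group, at 86.7 in the double KO, 87.8 in Scl KO, 101 in Lyl1 KO and 109 CPM per kilobase in wild type. Bcl2l1 ranked 2 in Scl KO (51.0 ± 6.55), Lyl1 KO (80.7 ± 4.82) and wild type (70.4 ± 1.69 CPM per kilobase) and 4 in the double KO (25.3 ± 4.27). In the double KO, Bax ranked 2 at 58.5 and Bbc3 ranked 3 at 30.2, while Bak1 at 24.9 CPM per kilobase did not differ from Bcl2l1 beyond their spread. The lowest ranks in wild type were those of Bcl2l11 (6.02), Bcl2 (2.86) and Pmaip1 (2.84 CPM per kilobase), and the last 2 of these differed by less than their spread. In the double KO, Bcl2l11 ranked last at 3.0 and Bcl2 ranked 7 at 11.6 CPM per kilobase.

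The interaction asks whether losing Lyl1 acts differently when Scl is also lost, and is the change of the double KO against Scl KO minus that of Lyl1 KO against wild type. 5 members were called, 1 higher and 4 lower, with a background of 9.38% of all genes (3.51% higher and 5.86% lower). For Bcl2l1 it was -1.21 ± 0.18 (adjusted p = 0.00282) and for Bcl2 1.41 ± 0.18 (adjusted p = 0.00127), both called under all 17 alternatives. For Bid it was -0.78 ± 0.17 (adjusted p = 0.0176, and 0.0521 without Lyl1 KO replicate 1). In each of these genes the effect of Lyl1 loss with Scl present was small and opposite in sign to its effect without Scl, and the effect with Scl present was not called.

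The other called interactions were less firm. For Bcl2l11 it was -1.46 ± 0.41 (adjusted p = 0.0445) and the call was lost in 11 of 17 alternatives, with adjusted p up to 0.127. For Bbc3 it was -0.56 ± 0.16 (adjusted p = 0.0486), and the call was lost in 12 of 17 alternatives, with adjusted p up to 0.152. The single libraries whose removal kept the call were Scl KO replicate 3 and wild type replicate 1 for Bcl2l11, and wild type replicate 3 for Bbc3. Pmaip1 (2.39 ± 0.76, adjusted p = 0.0737) and Bak1 (-0.42 ± 0.13, adjusted p = 0.0694) were not called, and became called without Scl KO replicate 3 (0.0282) or double KO replicate 1 (0.00761) for Pmaip1 and without double KO replicate 3 (0.042) for Bak1. Other settings that called them were DESeq2's Wald test for both (0.013 for Pmaip1 and 0.0257 for Bak1) and, for Pmaip1, the replicate block (0.0432) and the covariate (0.0314). Mcl1, Bax and Bad had interactions of 0.08, 0.10 and -0.31, with adjusted p of 0.811, 0.852 and 0.319.

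Over the 10 members the median log2 change was -0.12 in the double KO against wild type, where that of all genes was 0.04. It was -0.14 against Scl KO (all genes 0.03) and -0.29 against Lyl1 KO (all genes 0.06). Scl KO and Lyl1 KO against wild type had member medians of 0.09 and 0.16, with all genes at 0.00 and -0.00. The libraries of the 2 groups did not overlap for 6 members in the double KO against wild type, where that held for 42.5% of all genes. It held for 5 members against Scl KO (33.4% of all genes) and 7 against Lyl1 KO (49.7%). In Scl KO and Lyl1 KO against wild type it held for 4 and 3 members (22.4% and 15.9% of all genes).

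For each member called in any comparison, the 2 genes of closest pattern were taken as those with the smallest root mean square difference of centred log2 CPM over the 12 libraries, among 7955 genes with a mean of at least 10 CPM. Bcl2l1 was closest to Tmem40 (0.07) and Laptm4a (0.08), against a spread of 0.66 of Bcl2l1 around its own mean. Laptm4a was at 125 CPM in the double KO, 234 in Scl KO, 395 in Lyl1 KO and 361 in wild type. Bid was closest to Tada3 (0.08) and Ppp6r1 (0.09), with a spread of its own of 0.54. Bcl2 had no gene as close: Gabbr1 (0.18) and Rhoc (0.19) were nearest, against its spread of 0.91, and Rhoc was at 237 CPM in the double KO, 117 in Scl KO, 52.3 in Lyl1 KO and 50.7 in wild type. Bak1 was closest to Ywhae and Arpc3, Mcl1 to Pcyox1 and Tmem189, Bax to Lrwd1 and Rps24, Bcl2l11 to Fbxo30 and Numb, Bbc3 to Ap1m1 and Ccdc124, and Pmaip1 to AU020206 and Skil. The likeness is a description over 12 libraries that share their genotypes.

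Further members of the family were taken from a list of 15, of which 12 were tested. In the double KO against wild type 3 were higher and 1 lower, where 34.5% of all genes were called (16.4% higher and 18.1% lower), so the share was near the background. The list median was 0.01 on the log2 scale (all genes 0.04). Bmf, a BH3-only gene linked to the loss of cell attachment, stood at 106, 108 and 84.7 CPM in the double KO libraries, at 10.6, 11.5 and 9.27 CPM in Scl KO, at 5.31, 5.01 and 2.64 CPM in Lyl1 KO and at 7.62, 4.71 and 3.83 CPM in wild type. The double KO libraries lay far above all others, and Bmf rose by 4.21 ± 0.29 against wild type (adjusted p = 1.4e-06), by 3.25 ± 0.27 against Scl KO (adjusted p = 2.42e-05) and by 4.52 ± 0.29 against Lyl1 KO (adjusted p = 8.64e-07). These calls were kept under all 18 alternatives, as was its interaction of 3.56 ± 0.38 (adjusted p = 0.000349) under all 17.

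Bnip3l, which marks mitochondria for removal in maturing red blood cells, fell in the double KO to 83.9 ± 11.6 CPM, against 135 ± 10.5 CPM in Scl KO, 259 ± 36.3 CPM in Lyl1 KO and 246 ± 21.7 CPM in wild type. Its log2 change was -1.55 ± 0.13 in the double KO against wild type (adjusted p = 6.71e-06) and -0.86 ± 0.13 in Scl KO relative to wild type (adjusted p = 0.00271). Bcl2l2, which encodes the pro-survival protein Bcl-w, was at 33.3 ± 2.19 CPM in the double KO, 31.6 ± 3.76 CPM in Scl KO, 19.5 ± 2.77 CPM in Lyl1 KO and 20.5 ± 0.563 CPM in wild type. It rose by 0.70 ± 0.13 in the double KO against wild type (adjusted p = 0.00126). The BH3-only gene Bik rose by 1.89 ± 0.32 (adjusted p = 0.000856), at 5.26 ± 1.79 CPM in the double KO and 1.41 ± 0.41 CPM in wild type. In Scl KO against wild type Bcl2l2 and Bik were also called higher, and those calls were lost without Scl KO replicate 1, Scl KO replicate 2 or wild type replicate 2, for Bik also without wild type replicate 1, with adjusted p up to 0.0682 for Bcl2l2 and 0.103 for Bik.

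**Figure D4:**
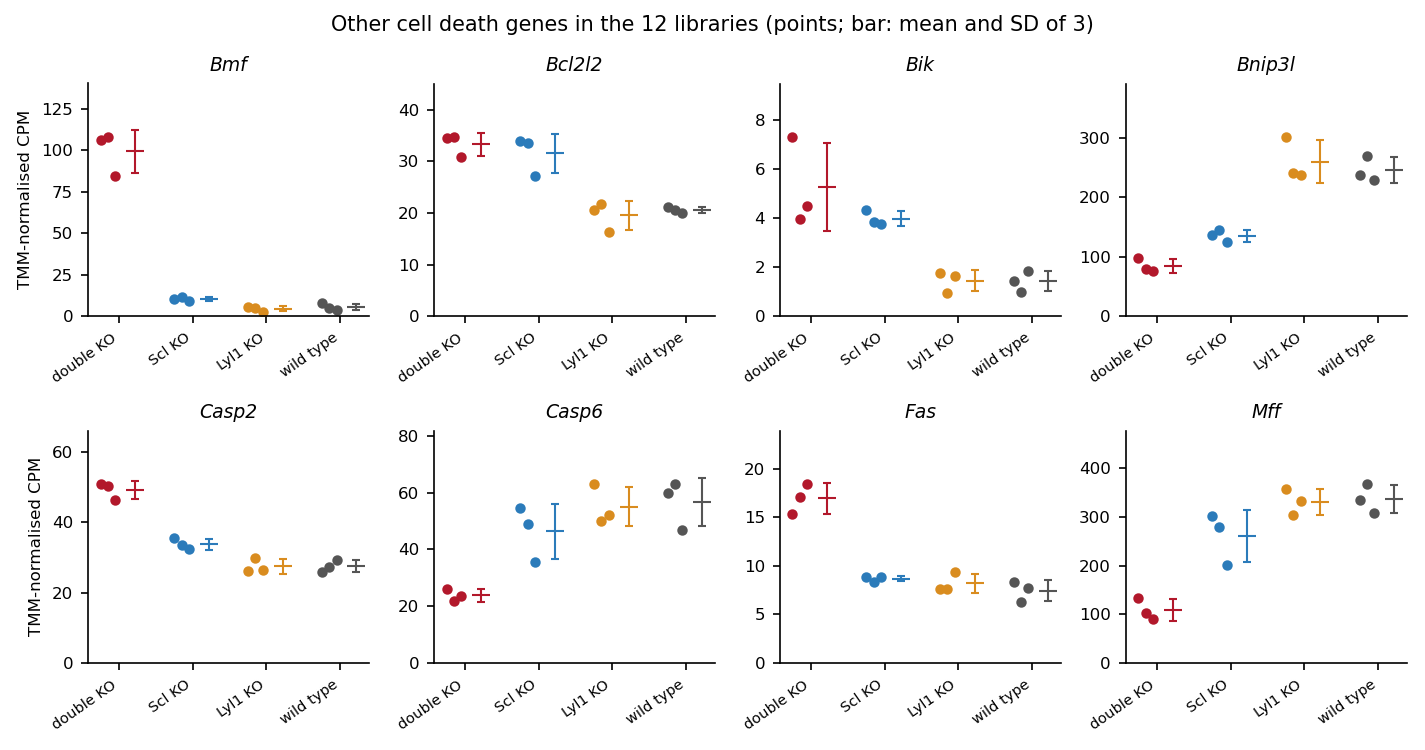
Level of 8 other genes of cell death in TMM-normalised CPM (vertical axis, from 0, a scale per gene) in the 12 libraries (points), beside each group's mean and SD (n = 3). Bmf lies between 84.7 and 108 CPM in the double KO libraries and between 2.64 and 11.5 CPM in the other 9, while Mff and Bnip3l are lowest in the double KO.

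A list of 13 genes around Bax and Bak1 held mostly genes of the mitochondria, and also Bag1 and Bag3. Of these 13, 7 were called in the double KO against wild type, all lower and Bag3 among them, where 18.1% of all genes were called lower. The list median was -0.25 on the log2 scale (all genes 0.04). Mff, which recruits the fission machinery, fell to 109 ± 22.6 CPM in the double KO, against 337 ± 29.7 CPM in wild type (-1.63 ± 0.17, adjusted p = 3.24e-05). The fusion gene Mfn2 fell by 0.79 ± 0.09 (adjusted p = 6.46e-05), and Vdac3, a channel of the outer membrane, by 0.78 ± 0.17 (adjusted p = 0.00426). Vdac2, the channel that holds Bak, was at 163 ± 11.3 CPM in the double KO and 166 ± 11.8 CPM in wild type and was not called (-0.03 ± 0.10, adjusted p = 0.873).

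Downstream of the mitochondria, 3 of 19 genes of the apoptosome and the caspases rose and 5 fell in the double KO against wild type (34.5% of all genes called, list median -0.06 on the log2 scale). Casp2 rose to 49.2 ± 2.53 CPM, against 27.5 ± 1.66 CPM in wild type (0.84 ± 0.09, adjusted p = 4.23e-05), and Casp8, the caspase of death receptors, rose by 0.51 ± 0.12 (adjusted p = 0.00792). Casp6, an executioner, fell to 23.8 ± 2.24 CPM, against 56.6 ± 8.44 CPM in wild type (-1.25 ± 0.17, adjusted p = 0.000147), and the caspase inhibitor Xiap fell by 0.53 ± 0.13 (adjusted p = 0.00652). Casp9, the initiator caspase of the pathway, was at 23.7 ± 2.83 CPM in the double KO and 22 ± 6.72 CPM in wild type (adjusted p = 0.716).

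Of 10 death receptors, ligands and adaptors, 1 rose and 3 fell in the double KO against wild type (34.5% of all genes called, list median -0.16). Fas, the receptor of Fas ligand, rose to 16.9 ± 1.56 CPM, against 7.45 ± 1.1 CPM in wild type (1.18 ± 0.15, adjusted p = 0.000109). Tnfsf10, the ligand TRAIL, fell by 0.88 ± 0.25 (adjusted p = 0.0178) and by 1.78 ± 0.26 in Scl KO relative to wild type (adjusted p = 0.0021). The first of these was lost without double KO replicate 2 or wild type replicate 2 and in the 6 libraries alone. Its adjusted p was up to 0.0919 in these fits. Among 12 genes of the p53 pathway 2 rose and 2 fell, a share near the 34.5% of all genes (list median -0.05). Cdkn1a, the cell cycle inhibitor p21, rose to 257 ± 22.4 CPM in the double KO, against 72.2 ± 48.2 CPM in wild type (1.83 ± 0.38, adjusted p = 0.00291), while Mdm2, which degrades p53 and is itself a p53 target, fell by 0.77 ± 0.12 (adjusted p = 0.000417) and Phlda3, another target, by 1.60 ± 0.32 (adjusted p = 0.00215).

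Survival signalling from cytokines was covered by 25 genes, of which 3 rose and 8 fell in the double KO against wild type, where 16.4% of all genes were called higher and 18.1% lower (list median -0.30). Sh2b3, which dampens cytokine signalling in blood cells, fell to 72.1 ± 15.2 CPM, against 417 ± 87.7 CPM in wild type (-2.53 ± 0.23, adjusted p = 9.81e-06), and Epor, the erythropoietin receptor, fell to 25.3 ± 11.4 CPM, against 139 ± 11.8 CPM in wild type (-2.46 ± 0.28, adjusted p = 4.77e-05). Cish, a feedback inhibitor of cytokine signalling, rose by 2.49 ± 0.32 (adjusted p = 0.000122), and Foxo1, a transcription factor that Akt holds out of the nucleus, by 1.12 ± 0.15 (adjusted p = 0.000133).

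For the turnover of Mcl-1 protein 8 of 9 listed genes were tested, of which 2 rose and 1 fell in the double KO against wild type, near the 34.5% of all genes called (list median 0.07). Gsk3b, whose kinase marks Mcl-1 for destruction, fell by 0.97 ± 0.11 (adjusted p = 5.67e-05), at 125 ± 5.42 CPM in the double KO and 246 ± 28.6 CPM in wild type. For the exposure and recognition of phosphatidylserine, the signal by which spent platelets and dying cells are cleared, 12 of 14 were tested, and 3 rose and 1 fell, near the same 34.5% (list median -0.38). Plscr4, a member of the scramblase family by sequence, rose to 96.1 ± 12.8 CPM in the double KO, against 14.8 ± 4.26 CPM in wild type (2.70 ± 0.18, adjusted p = 1.12e-06). Ano6, the calcium-driven scramblase of platelets, fell to 503 ± 139 CPM, against 981 ± 65.7 CPM in wild type (-0.96 ± 0.18, adjusted p = 0.0016).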

How the data were processed

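RNA was extracted with Trizol and RNeasy columns and made into TruSeq stranded mRNA libraries, per the labels' protocols. The authors deposited raw read counts per gene in a single table of the 12 libraries. STAR 2.5.2b, GRCm38, featureCounts of Subread 1.5.2 and limma are named in the submitters' processing notes. Per the file headers, counting used the reverse strand (setting 2) and Ensembl 87 gene models, without the option for reads that map to several places. The sources used here do not give read length or trimming. Bcl2, Bax and Bid overlap small gene models on the same strand, each with few counts. Reads in the overlaps could be divided with these or left uncounted, and how many cannot be seen in gene-level counts. Symbols were matched for 49326 of 49671 gene identifiers. Total counts were 24324685 to 29212443.

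The tests used edgeR 4.0.16 under R 4.3.3, after its filter on low counts (at least 10 in enough libraries, at least 15 in all) and TMM scaling. The robust quasi-likelihood F-test was fitted once to the 12 libraries, with no term but group. Deviations of same-numbered libraries correlated over 0.1 in 10 of 18 pairs, with all 3 pairs of double KO and Scl KO among them. So did Scl KO 2 with double KO 1 (0.231) and Scl KO 1 with double KO 2 (0.152). SE is the log2 change divided by the root of F. Levels per length are CPM over the table's exon length. Alternatives were DESeq2 size factors, no filter, the replicate number as a block, the score on the second principal component as a covariate, DESeq2 1.42.0's Wald test, the 6 libraries compared alone, each library left out, and levels per length scaled to a common sum. Scores on the second principal component were 24.4 to 35.1 in Lyl1 KO and -17.5 to 26.6 in the double KO. They were -33.0 to 17.9 in Scl KO and -38.1 to 26.1 in wild type. The component comes from the same libraries and partly follows Lyl1 KO. Fits with it are therefore not independent checks of the interaction or of comparisons with Lyl1 KO. Promoter sequences are from RefSeq, cut to 250 bases before the start. Windows on chromosome 18 were left out, so 9 members had a window and Pmaip1 had none. The test was checked on simulated counts, which need not match the spread and correlations among these libraries. Other genes named from the wider lists are called members with the smallest adjusted p, up to 4 per list and comparison, of which a selection is given. Vdac2 and Casp9 are named though not called, chosen after their values were seen. Members and lists were chosen with earlier results of these data known.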

Additional observations from a re-analysis of the deposited data

Results flagged for a closer look

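In 5 members the effect of Lyl1 loss differed with and without Scl, by the interaction term of edgeR's fit (log2, effect without Scl minus effect with Scl). It was -1.21 for Bcl2l1, 1.41 for Bcl2, -1.46 for Bcl2l11, -0.56 for Bbc3 and -0.78 for Bid. In the wider lists the same term was called for 8 genes outside cytokine signalling and for 8 of cytokine signalling, of which the 4 with the smallest adjusted p are given. It was 3.56 for Bmf and -0.76 for Bnip3l of the Bcl2 family, 0.54 for Casp2 and -0.92 for Casp6 of the caspases, 0.82 for Fas, -1.24 for Mff and -0.67 for Mfn2 of the mitochondrial partners, -2.16 for Epor, -1.75 for Sh2b3, -0.73 for Akt2 and 0.89 for Foxo1 of cytokine signalling, and -0.90 for Ano6.

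Several of these calls were lost under some alternatives, with adjusted p up to 0.077 for Casp2, 0.0872 for Casp6, 0.0966 for Fas, 0.071 for Bnip3l, 0.111 for Ano6, 0.0568 for Akt2 and 0.0619 for Foxo1. The calls of Bmf, Mff, Mfn2, Epor and Sh2b3 were kept under all 17 alternatives. Of the 20 megakaryocyte and platelet markers, 10 also had a called interaction, all lower, where 5.86% of all genes were called lower. The part of these markers in the results was not tested.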

How the results depend on the processing

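Bcl2l1 and Bcl2 kept their calls in the 3 double KO comparisons and the interaction under every alternative run, and Bid in the 3 double KO comparisons. Of 1070 values of the 60 member fold changes under alternatives, 965 kept direction and side of the threshold, 55 lost a call, 29 gained one and 21 changed sign.

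The labels number the libraries as biological replicates and do not say whether a shared number marks a litter, day or batch. Deviations of same-numbered libraries correlated at -0.0432 to 0.441, 10 of 18 such pairs over 0.1, against 7 of 36 pairs with different numbers. All 3 same-numbered pairs of double KO and Scl KO were over 0.1 (0.216, 0.15 and 0.441). So were Scl KO 2 with double KO 1 (0.231) and Scl KO 1 with double KO 2 (0.152). The other pairs of these groups with different numbers were at -0.33 to -0.223. The number thus did not separate replicates 1 and 2 of these groups. In that comparison the block called 5 members, as without it. With the replicate number as a block, 16, 1226, 5970, 3722, 6043 and 2100 genes were called, and 0, 3, 6, 5, 7 and 6 members. The order is Lyl1 KO, Scl KO and double KO against wild type, double KO against Scl KO and against Lyl1 KO, and interaction. Without the block the counts were 11, 774, 5312, 2947, 5422 and 1444 genes, and 0, 2, 6, 5, 6 and 5 members. Bcl2l1 in Scl KO relative to wild type (adjusted p = 0.0148), Bax in the double KO against Lyl1 KO (0.0483) and the Pmaip1 interaction (0.0432) were called only with the block, of these 2 fits.

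In Lyl1 KO against wild type, 7 genes were called with the second principal component as a covariate, 103 by DESeq2's Wald test and 29 in the 6 libraries alone. In Scl KO against wild type, the covariate gave 1428 and DESeq2 1329 genes, and the 6 libraries alone gave 1 member. In the double KO against Scl KO, the 6 libraries alone gave 1742 genes. For the interaction, the covariate gave 2558 and DESeq2 2262 genes, and no filter gave 3 members. The cause was not tested. Leaving out 1 library gave 5 to 41, 388 to 1063, 3899 to 5528, 1645 to 3222, 3884 to 5630 and 671 to 1925 genes in the same order, and 0, 1 to 3, 4 to 6, 4 to 6, 5 to 8 and 2 to 5 members.

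All changes of sign among the refitted fold changes were in uncalled values near 0. Without single libraries, the log2 change in Lyl1 KO against wild type ranged from -0.107 to 0.371 for Bcl2l11 and from -0.285 to 0.207 for Pmaip1, and that of Bak1 in Scl KO from -0.011 to 0.11. That of Bad in the double KO against wild type ranged from -0.094 to 0.061, and that of Mcl1 in the double KO against Scl KO from -0.086 to 0.037, with 0.003 in the 6 libraries alone. The interaction ranged from -0.013 to 0.168 for Mcl1 and from -0.068 to 0.312 for Bax. With levels per length scaled to a common sum per library, Bak1 ranked 4 in the double KO. On that scale the mean of Mcl1 was 351 ± 48.7 in the double KO and 336 ± 37.3 in wild type. That of Bak1 was 101 ± 11.8 and 90.6 ± 9.36, so neither mean was lower in the double KO, unlike in CPM. The called falls of Bak1 and Bbc3 against Lyl1 KO also depended on the scaling. On the common-sum scale Bak1 was at 93.1 ± 2.15 in Lyl1 KO, below its double KO mean. Bbc3 was at 122 ± 6.54 in the double KO and 111 ± 7.22 in Lyl1 KO. The means of Bcl2l1, Bcl2l11 and Bid stayed lower in the double KO than in wild type.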
